A study of Rattus norvegicus with 8 samples.

Results

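Translation initiation and elongation factors are the proteins that bring a ribosome to the start codon of an mRNA and then carry it along the message. Their genes were followed here in rat primary thymocytes exposed to dexamethasone, a synthetic glucocorticoid that triggers apoptosis of these cells. Members were taken by the name the array gives a probe, namely every symbol that begins with Eif and a digit or with Eef1 or Eef2, leaving out the Eif2ak kinases and the Eif4ebp binding proteins, and this rule used no measured value. It found 78 probes for 45 genes among the 41012 probes of the array. By the current RefSeq names, 4 of these genes (Eif2c1, Eif2c2, Eif2c3 and Eif2c4) are the Argonaute genes Ago1 to Ago4, which act in microRNA silencing, and Eef2k encodes a kinase of eEF2, so that 40 genes are factors in the strict sense.

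Both groups held thymocytes of adrenalectomized male Sprague-Dawley rats, an operation that removes most of the animal's own glucocorticoid, and the thymi of 3 rats were pooled for a preparation. Control cells were cultured for 6 hours without hormone and Dex cells for 6 hours with 100 nM dexamethasone, with 4 arrays in each group. The methods state 3 biological replicates while 4 arrays carry replicate numbers per group, so the p-values measure the spread between these arrays, some of which may be technical. The age of the rats is not given in the sources used here, and the pooling hides the spread between animals.

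In initiation, eIF2 delivers the initiator tRNA to the small ribosomal subunit and is recharged with GTP by eIF2B. The large eIF3 complex keeps the subunit ready for mRNA, and the eIF4 factors bind the cap of the message and unwind it. eIF5, eIF5B and their relatives act at the start codon and in joining of the large subunit, after which eEF1 brings aminoacyl-tRNA and eEF2 moves the ribosome by a codon. Many of these factors are abundant in dividing and growing cells, and several are targets of MYC, which binds E-box sequences.

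To show what the starts of these genes look like, promoter windows were read from a table of RefSeq promoters on the build GRCr8, each running from 250 bases before to 50 bases after a gene's start. Of the 45 genes, 40 had an entry, with 43 promoters. The E-box CACGTG, read on both strands, was in 10 of the 43 promoters (23.3%) against 6.42% of all 33469 promoters of the table. The ETS motif CCGGAAGT, also on either strand, was in 8 (18.6%) against 3.81%. The 5 windows that follow carry an E-box or an ETS motif upstream of the start of a member described further on, with the motif in capitals and 20 bases on either side, written 5′ to 3′ in the direction of transcription.
Eif4e, 80 bases before the start, chr2:229740653-229740698, plus strand: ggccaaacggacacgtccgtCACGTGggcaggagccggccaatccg
Eif4g1, 54 bases before the start, chr11:93746396-93746441, minus strand: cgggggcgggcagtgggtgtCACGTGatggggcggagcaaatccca
Eif3s9 (Eif3b), 57 bases before the start, chr12:19334800-19334845, minus strand: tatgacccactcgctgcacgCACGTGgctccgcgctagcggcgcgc
Eef2, 76 bases before the start, chr7:9189289-9189334, minus strand: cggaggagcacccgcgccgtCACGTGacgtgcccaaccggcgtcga
Eif3s7 (Eif3d), 130 bases before the start, chr7:111432843-111432890, minus strand: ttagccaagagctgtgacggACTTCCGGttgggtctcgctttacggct
The NRF1 motif was found in 1 promoter, that of Eif3s12 (Eif3k), which is 2.33% against 0.852% of all promoters. The palindromic glucocorticoid response element was in none of the 43, and in only 0.0149% of all promoters, which says only that these letters are not in these windows. The 10 genes with an E-box had a median difference between Dex and Control of 0.16 on the log2 scale (range -0.14 to 0.77, the upper end being Eif5a2, which was not well above background on any array), and the 30 without one had a median of 0.07 (range -0.42 to 0.72). With Control 1, Dex 1 and Dex 2 left out, the 10 differed by -0.21 (Eif1b), -0.15 (Eif4e), -0.05 (Eif5a), 0.01 (Eif3s5, Eef2 and Eif4g1), 0.09 (Eif3s9), 0.27 (Eif5a2), 0.34 (Eef2k) and 0.45 (Eif3s10). The 8 genes with the ETS motif had a median of 0.11 over all 8 arrays, and the 32 without it 0.08. A link between motif and difference was not tested.

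All values that follow are log2 signals after quantile normalization between arrays, and a difference is the Dex mean minus the Control mean, so that 1 is a doubling. A probe was called by limma at a Benjamini-Hochberg adjusted p under 0.05 over all probes. Where a gene had several probes the brightest one stands for it. Transcripts of 41 of the 45 genes were well above background on all 8 arrays, in the words of the scanner software. Eif5a2, a second eIF5A gene, was not well above background on any array. Eif2c3 and Eif2c4 passed on 6 arrays, and Eef1a2, the elongation factor form of muscle and nerve, on 5.

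The cells carried the marks of thymocytes, with all 14 measured thymocyte markers well above background on all 8 arrays and none called by limma. Of these 14, 11 had the lower mean in Dex (median -0.188). With 1 array left out that median lay between -0.311 (without Dex 2) and -0.148 (without Dex 3). At an unadjusted p under 0.05 there were 4 lower, Ptcra (-0.61), Ptprc (-0.42), Cd5 (-0.70) and Rag1 (-0.59), and 1 higher, Cd8b (0.52). Cd8b had no value on Control 1, so its Control mean rests on the other Control arrays. Ptcra, Ptprc and Cd5 also passed the signal to noise rule described further on. In other fits limma called 2 of the 14 lower after normexp, 2 with the slide as a random block and 1 without Control 1, Dex 1 and Dex 2. In the last of these fits 13 were lower and 1 higher, with a median of -0.434. The 12 genes chosen as a control of hormone action held 6 that limma called higher in Dex, among them Tsc22d3 and Fkbp5, and 3 with arrays scaled to the 75th percentile. With the replicate number as a block 5 were called, without Nfkbia (adjusted p = 0.0673 by limma). Sgk1 of the same list differed the other way, by -1.32 with no overlap of the groups (adjusted p = 0.0503 by limma), and 1 gene of the list was called lower after normexp, with dim probes left out, with the slide as a random block and without Control 1, Dex 1 and Dex 2. Dex 1 and Dex 2 had 26471 and 24908 probes well above background and Control 1 had 28665, against 33148 to 34472 on the other 5 arrays. Dex arrays correlated with each other at 0.9189 to 0.99, and Control arrays at 0.9753 to 0.9898. Of 10 stromal markers, 6 were well above background on all arrays, Dcn was on none, and their mean level was 5.69 to 5.86 in Control and 6.17 to 6.50 in Dex, with 1 of them (Pecam1) called higher (adjusted p = 0.0208 by limma), a call lost with the replicate block (adjusted p = 0.108), with 75th percentile scaling and without any 1 of Control 1, Control 2, Control 3, Control 4, Dex 1 or Dex 4. Of these 10 genes 9 had a higher mean in Dex, with a median difference of 0.476. That median was 0.29 with 75th percentile scaling and 0.145 after normexp, with 9 higher in both. Pdgfrb, at 2.88 in Control and 4.59 in Dex, differed by 1.72 with no overlap (adjusted p = 0.16 by limma). Of 10 macrophage markers 8 were bright on all arrays, with means of 6.68 to 6.93 in Control and 6.70 to 7.15 in Dex. C1qb (0.84) and C1qc (0.97) had an unadjusted p under 0.05 and were not called over all 8 arrays. Without Control 1, Dex 1 and Dex 2, limma called 2 macrophage and 3 stromal markers higher, in a fit that called 11.4% of all probes. All 4 erythroid markers were bright and had the higher mean in Dex (median 0.513, list means 6.50 to 7.75 in Control and 6.99 to 8.12 in Dex). The erythroid median was 0.249 without Control 3 and 0.334 without Dex 2, each with 3 higher and 1 lower. Without Control 1, Dex 1 and Dex 2, limma called 1 erythroid marker. Of 5 B cell markers 3 were bright, and the median of the 5 was -0.0968. It was above 0 without Control 4 (0.0178), without Dex 3 (0.15) and without Dex 4 (0.0159). Their part in the results was not tested, and fewer cells of a type and less RNA per cell cannot be told apart in these bulk samples.

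No translation factor probe was called by limma, 0 of 78, where 0.778% of all probes (319) were. The lowest adjusted p of a member was 0.157, for Eif4g3. At an unadjusted p under 0.05, 9 member probes (11.5%) passed, 7 higher and 2 lower in Dex, beside 10.6% of all probes and 13.1% of the 23987 probes that were well above background on every array. The signal to noise rule, recomputed with the thresholds of the study's methods (a one-tailed nominal p of at most 0.01 and a fold change of at least 1.2, with no adjustment) but with its own null of pooled divisions of the arrays, called 7 member probes higher (3.59% of all probes were) and 2 lower (3.2% of all probes were). That is 11.5% of the members, close to the 10.0% of bright probes. With arrays scaled to the 75th percentile 2 member probes (2.56%), for Eif2c2 and Eif4g3, passed the rule, against 5.66% of all probes. All Dex arrays lay above all Control arrays for 9 member probes, against 4.6% of all probes, and below them for 4, against 4.51%. Together that is 16.7% of the member probes, beside 13.2% of bright probes and 9.11% of all probes.

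The differences were also small for most members, as the plot of differences and intervals by family shows. They ran from -0.42 to 0.72 over the 44 genes above background on some array, 32 of them higher and 12 lower. With Eif5a2, whose 0.77 was read below that mark on every array, the median of the 45 genes was 0.105, where the median of all probes was 0.00033. The median was -0.00897 with Control 1, Dex 1 and Dex 2 left out. For 74 of the 78 probes (94.9%) the difference was within 0.5 of 0, which held for 82.3% of bright probes and 76.4% of all probes. The 95% interval from limma lay within a doubling and a halving, that is within -1 and 1, for 40 of the 45 genes (88.9%), whereas it did so for 63.5% of the bright probes. The 45 are each gene's brightest probe, and the bright probes were not matched to them for signal level. The median SD of the 45 was 0.13 in Control and 0.21 in Dex, against 0.2 and 0.39 for bright probes. At the brightest probe of those 40 genes a change of 2-fold or more at 6 hours was therefore outside the interval. This does not hold for every probe. Dimmer probes of Eif4e (-1.14 to 0.51), Eif5b (-1.16 to 0.98) and Eif2c1 (-0.29 to 1.16) had intervals that reached past it.

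**Figure D1:**
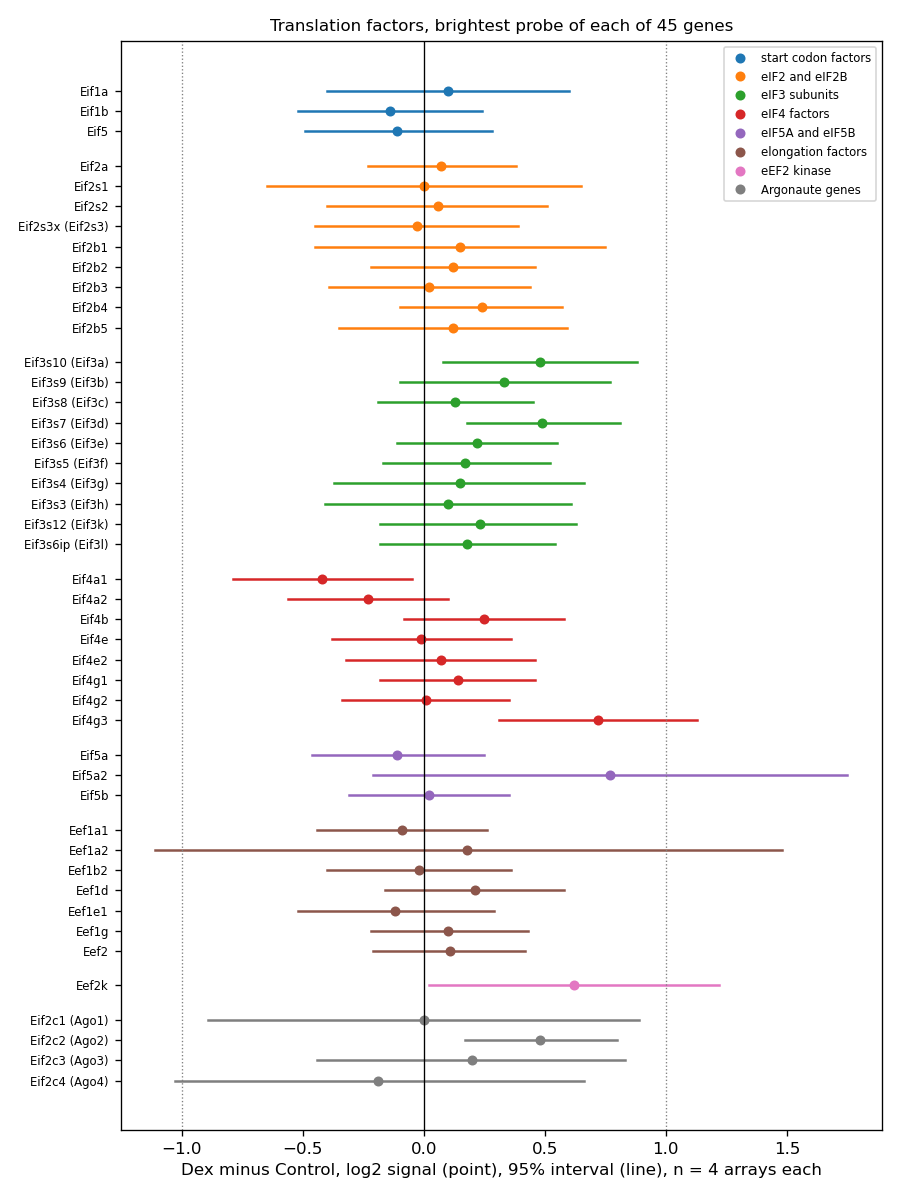
Dex minus Control log2 signal (x axis) for the brightest probe of each of 45 genes (y axis), coloured by family, with points for the difference and lines for the 95% interval from limma (n = 4 arrays per group, dotted lines at -1 and 1). All 10 eIF3 subunits sit to the right of 0, and 40 of the 45 intervals lie between the dotted lines.

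The members recorded different levels on the 4 Dex arrays. Median levels relative to the Control mean were 0.276 on Dex 1 and 0.29 on Dex 2 but -0.0187 on Dex 3 and -0.0341 on Dex 4. Dex 1 and Dex 2 both read above Dex 3 and Dex 4 for 58 of 78 probes (74.4%), which was the case for 58.8% of bright probes and 48.3% of all probes. Both read below them for 8 (10.3%), against 24.5% of bright probes and 31.0% of all probes. With Control 1, Dex 1 and Dex 2 left out, the sign of the difference changed for 13 of the 45 genes. The SD between arrays was larger in Dex than in Control for 34 of 45 genes (75.6%, against 75.4% of all probes), with a median SD of 0.13 in Control and 0.21 in Dex. Dex 1 and Dex 2 are the 2 Dex arrays with few probes above background, and the part of this in the members' levels was not tested.

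**Figure D2:**
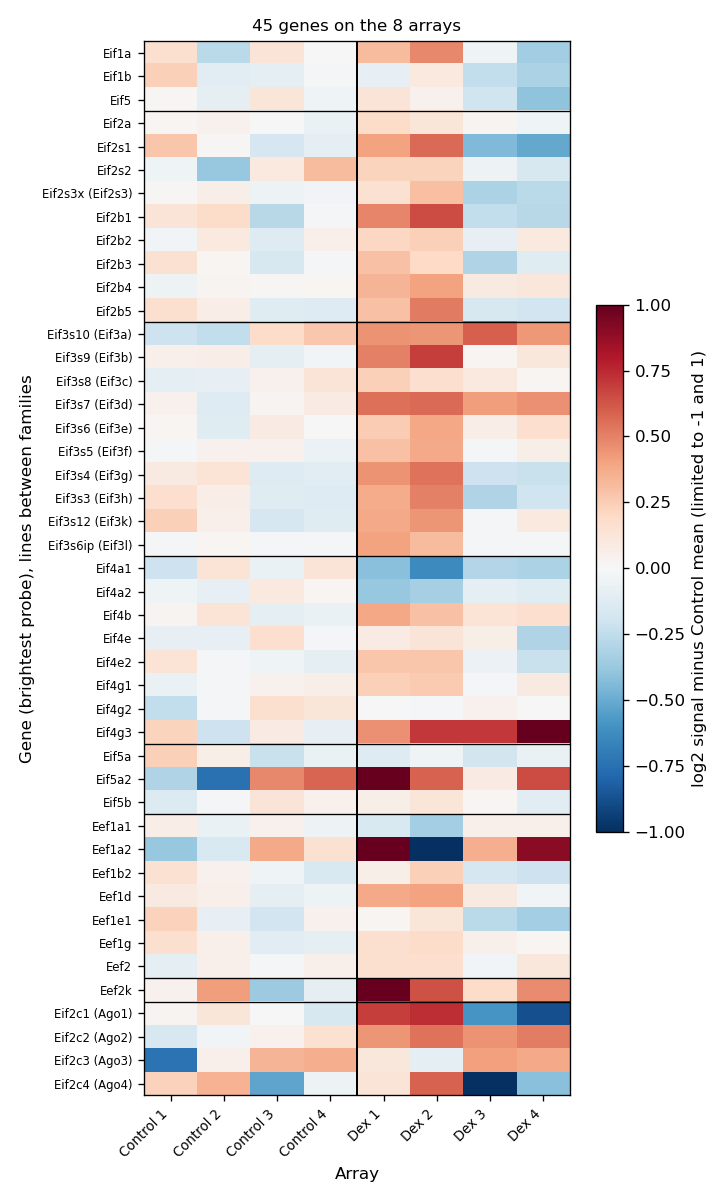
Log2 signal minus the Control mean of each gene (colour, limited to -1 and 1) for 45 genes (rows, by family) on the 8 arrays (columns). Red is above and blue below the Control mean, and Dex 1 and Dex 2 are redder than Dex 3 and Dex 4 for most factors, with gene medians of 0.276 and 0.29 against -0.0187 and -0.0341.

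Among the start codon factors, Eif1a, whose protein helps the small subunit scan for the AUG, differed by 0.10, Eif1b, a close relative of Eif1, by -0.14, and Eif5, the GTPase activating protein of eIF2, by -0.11. None of these 3 was called, and a second Eif5 probe gave 0.16.

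None of the genes of eIF2 and eIF2B was called. In 8 of 9 the Dex mean was the higher, with a median of 0.0745 and a range of -0.03 to 0.24. This direction rested on Dex 2, without which 4 were higher and 5 lower (median -0.0172). It also turned with Control 1, Dex 1 and Dex 2 left out (3 higher and 6 lower, median -0.121) and between Control 1 and Dex 3 on their shared slide (2 higher and 7 lower). Eif2s1 encodes eIF2 alpha, the subunit that stress kinases phosphorylate. It read 9.56, 9.29, 9.11 and 9.18 on Control 1 to 4 and 9.68, 9.85, 8.84 and 8.77 on Dex 1 to 4. The Dex arrays thus fell on both sides of all Control arrays, with a mean difference of 0.00 (SE 0.28) and an adjusted p by limma of 1. Its partner Eif2s2 differed by 0.06 and Eif2s3x (Eif2s3) by -0.03, and Eif2a, an alternative carrier of initiator tRNA, by 0.07. Of the exchange factor's subunits, Eif2b1, Eif2b2, Eif2b3 and Eif2b5 differed by 0.15, 0.12, 0.02 and 0.12. Eif2b4, its delta subunit, read 10.63, 10.71, 10.69 and 10.70 in Control and 11.02, 11.08, 10.77 and 10.79 in Dex. These groups did not overlap, with a difference of 0.24 (SE 0.14, adjusted p = 0.648 by limma), and it was 0.08 with Control 1, Dex 1 and Dex 2 left out.

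The eIF3 complex was the family in which every member had the higher mean in Dex. All 10 subunits that the array names as such did, by 0.10 to 0.49 with a median of 0.20, and none was called by limma. An 11th subunit, Eif3m, stands under another name on the array and differed by 0.08. The same 10 kept their sign when arrays were scaled to the 75th percentile (median 0.231) and when background was corrected by normexp (median 0.176). With Control 1, Dex 1 and Dex 2 left out, 7 of 10 were higher and the median was 0.0581, and between Control 1 and Dex 3, the only arrays of unlike groups that share a slide, 5 were higher and 5 lower.

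Eif3s7 (Eif3d), a subunit that can itself bind the cap of some mRNAs, gave the steadiest difference of the complex. Its brightest probe lies at chr7:115912367-115912426 on rn3, the build of the array's annotation, minus strand. It read 13.42, 13.25, 13.41 and 13.46 in Control and 13.93, 13.95, 13.80 and 13.84 in Dex. The Dex arrays (SD 0.07) lay wholly above the Control arrays (SD 0.09), a 1.41-fold difference of 0.49 (SE 0.14, 95% interval 0.18 to 0.81, adjusted p = 0.212 by limma). A second probe of the gene gave 11.05, 11.03, 11.06 and 11.17 in Control and 11.54, 11.59, 11.39 and 11.48 in Dex, a difference of 0.43. Both probes passed the signal to noise rule. Both were also called by limma after normexp background correction, with adjusted p-values of 0.0334 and 0.0144, where 2.23% of all probes were called. With Control 1, Dex 1 and Dex 2 left out the brightest probe still differed by 0.44, with an adjusted p of 0.0998 by limma.

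Eif3s10 (Eif3a), the largest subunit and a scaffold of the complex, read 12.59, 12.55, 12.98 and 13.07 in Control and 13.25, 13.24, 13.40 and 13.23 in Dex. The Dex arrays were tight and all above Control, whose own arrays formed a low and a high pair, and the difference was 0.48 (SE 0.17, 1.40-fold, adjusted p = 0.36 by limma). Its 2 other probes differed by 0.52 and 0.24, of which the first also passed the signal to noise rule. Without Control 1, Dex 1 and Dex 2 the 3 probes differed by 0.03 to 0.45.

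Eif3s9 (Eif3b), another core subunit, read 11.46, 11.48, 11.32 and 11.38 in Control and 11.91, 12.10, 11.43 and 11.52 in Dex. Dex 1 and Dex 2 were high and Dex 3 lay among the Control arrays, with a difference of 0.33 (adjusted p = 0.61 by limma) that was 0.09 with Control 1, Dex 1 and Dex 2 left out. Eif3s12 (Eif3k) read 11.77, 11.58, 11.36 and 11.41 in Control and 11.91, 11.97, 11.52 and 11.63 in Dex, a difference of 0.23. Eif3s6 (Eif3e) read 12.15, 12.01, 12.21 and 12.13 in Control and 12.38, 12.52, 12.20 and 12.30 in Dex, a difference of 0.22. In both the groups overlapped, and Dex 1 and Dex 2 were again the highest arrays. The other subunits, Eif3s8 (Eif3c), Eif3s5 (Eif3f), Eif3s4 (Eif3g), Eif3s3 (Eif3h) and Eif3s6ip (Eif3l), differed by 0.13, 0.17, 0.15, 0.10 and 0.18.

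The eIF4 factors held the widest range, from -0.42 to 0.72, with 5 genes higher and 3 lower, or 3 higher and 5 lower with Control 1, Dex 1 and Dex 2 left out. Eif4e, the cap binding protein, read 11.50, 11.50, 11.75 and 11.56 in Control and 11.66, 11.71, 11.64 and 11.28 in Dex. The groups overlapped, with Dex 4 below all Control arrays, and the difference was -0.01 (95% interval -0.38 to 0.36). A dimmer probe of Eif4e differed by -0.31 (95% interval -1.14 to 0.51), and by -0.94 with Control 1, Dex 1 and Dex 2 left out. Its relative Eif4e2, a weaker cap binder, differed by 0.07. Eif4g1, the scaffold that joins Eif4e to the helicase and to eIF3, read 11.55, 11.61, 11.66 and 11.68 in Control and 11.86, 11.88, 11.61 and 11.71 in Dex. Its difference was 0.14 (95% interval -0.18 to 0.46), with 1 Dex array at a Control value, and it was 0.01 without Control 1, Dex 1 and Dex 2. Its other probes differed by 0.18 and -0.24.

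Eif4a1 encodes the RNA helicase that unwinds the start of the message. Its brightest probe, at chr10:56497914-56497973 on rn3, minus strand, read 14.45, 14.80, 14.59 and 14.79 in Control and 14.24, 14.02, 14.37 and 14.34 in Dex. All Dex arrays lay below all Control arrays, a difference of -0.42 (SE 0.16, adjusted p = 0.399 by limma) that passed the signal to noise rule. The 4 other probes of the gene differed by 0.03, 0.07, 0.16 and 0.14, with overlapping groups in each. Between Control 1 and Dex 3 on their shared slide the brightest probe differed by -0.08. Eif4a2, a close relative of the helicase, read 12.89, 12.85, 13.03 and 12.95 in Control and 12.55, 12.60, 12.84 and 12.81 in Dex. These groups did not overlap, though Dex 3 at 12.84 came close to Control 2 at 12.85, and the difference was -0.23 (adjusted p = 0.661 by limma), or -0.12 without Control 1, Dex 1 and Dex 2 and -0.04 on the shared slide.

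Eif4b, the RNA binding helper of that helicase, read 13.69, 13.80, 13.57 and 13.59 in Control and 14.05, 13.95, 13.80 and 13.83 in Dex, a difference of 0.25 (adjusted p = 0.62 by limma). The groups met at Control 2 and Dex 3. All 4 of its probes differed in the same direction, by 0.21 to 0.28, and the one at 0.28 passed the signal to noise rule. Without Control 1, Dex 1 and Dex 2 they differed by 0.06 to 0.20.

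Eif4g3, a scaffold of the same kind as Eif4g1, had the lowest adjusted p of all members. Its brightest probe, at chr5:156765974-156766033 on rn3, plus strand, read 11.62, 11.19, 11.48 and 11.32 in Control and 11.86, 12.11, 12.11 and 12.41 in Dex. All Dex arrays were above all Control arrays, a 1.65-fold difference of 0.72 (SE 0.18, 95% interval 0.31 to 1.13, adjusted p = 0.157 by limma). Without Control 1, Dex 1 and Dex 2 the difference was 0.93 with an adjusted p of 0.0401 by limma, in a fit that called 11.4% of all probes. It was called by limma after normexp (0.72, adjusted p = 0.0437), where 2.23% of all probes were. With the slide as a random block it was called too (0.76, adjusted p = 0.0204), where limma called 4.48% of all probes. The consensus correlation of that block was negative (-0.235), so its calls are less strict than those of the unblocked fit. Between Control 1 and Dex 3 on their shared slide this probe differed by 0.49. The other probes of the gene gave smaller differences of unlike sign. One at chr5:156986780-156988704 read 11.47, 11.63, 11.73 and 11.66 in Control and 11.27, 11.05, 11.54 and 11.69 in Dex, a difference of -0.23, and a dim one gave 0.23. All 3 were designed to the same transcript model, and which isoforms each detects was not tested.

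Eif4g2 (also known as Dap5), a scaffold that lacks the site for Eif4e, differed by 0.01 at its brightest probe, and its 4 other probes by -0.21, -0.20, -0.34 and -0.01. The probe at -0.34 read 9.59, 9.57, 9.74 and 9.83 in Control and 9.42, 9.29, 9.25 and 9.40 in Dex, without overlap, and passed the signal to noise rule. The probe at -0.01 is placed on chromosome 9, and the other 4 on chromosome 1.

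In all, 18 genes had 51 probes, and in 10 of them the probes differed in sign, mostly around 0. A range over 0.5 was found for Eif4g3 (0.95) and Eif4a1 (0.57). Over all 8 arrays the probes had 1 direction and differences above 0.2 for Eif3s10, Eif3s7, Eif4b and Eef2k, as the plot of probes by gene shows. Without Control 1, Dex 1 and Dex 2 this held for Eif3s7 and not for the other 3 genes.

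**Figure D3:**
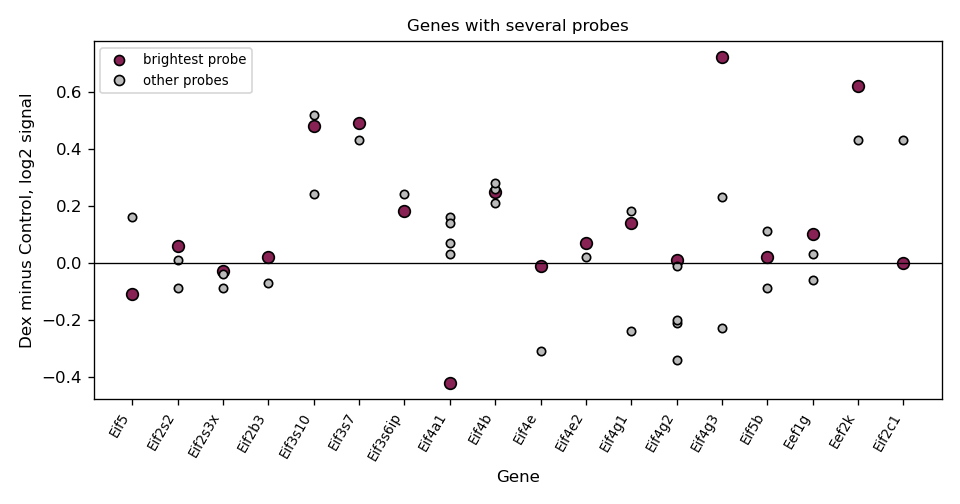
Dex minus Control log2 signal (y axis) of every probe of the 18 genes with several probes (x axis), with the brightest probe in dark red and the others in grey. The probes of Eif4g3 run from -0.23 to 0.72 and those of Eif4a1 from -0.42 to 0.16, while those of Eif3s7 lie at 0.43 and 0.49.

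Of the late factors, Eif5a, which carries the modified residue hypusine and helps stalled ribosomes, read 13.34, 13.16, 12.88 and 13.03 in Control and 12.97, 13.06, 12.92 and 13.03 in Dex. The Dex arrays lay inside the Control range, with a difference of -0.11 (95% interval -0.46 to 0.25). Eif5b, which joins the ribosomal subunits, differed by 0.02. The Eif5a2 probe read 1.01 to 2.34 in Control and 1.84 to 3.51 in Dex, all not well above background, so that its 0.77 is no measure of a change.

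No elongation factor gene was called, and 4 of the 7 had the higher mean in Dex, or 3 of 7 without Dex 1. Eef1a1, which delivers aminoacyl-tRNA, read 16.64, 16.50, 16.61 and 16.52 in Control and 16.42, 16.23, 16.62 and 16.62 in Dex. Dex 1 and Dex 2 were the lowest of the 8 arrays, with a difference of -0.09 (95% interval -0.44 to 0.26). Eef2, the translocase, read 15.96, 16.10, 16.04 and 16.10 in Control and 16.21, 16.22, 16.02 and 16.16 in Dex, a difference of 0.11 (95% interval -0.21 to 0.42) with overlapping groups. Eef1b2, Eef1d and Eef1g, subunits of the exchange factor of eEF1A, differed by -0.02, 0.21 and 0.10, and Eef1e1, a member of the tRNA synthetase complex, by -0.12. Eef1a2 spanned 1.08 to 3.78 in Dex and was near background, with a 95% interval of -1.11 to 1.48.

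Eef2k encodes the calcium and calmodulin dependent kinase that phosphorylates eEF2 and slows elongation. It read 9.99, 10.37, 9.59 and 9.86 in Control and 11.14, 10.59, 10.13 and 10.42 in Dex. The Dex arrays were mostly higher, with Dex 3 below Control 2, and the difference was 0.62 (SE 0.26, 1.54-fold, adjusted p = 0.452 by limma). It was 0.34 without Control 1, Dex 1 and Dex 2, and 0.14 between Control 1 and Dex 3, while a dimmer probe of the gene gave 0.43 over all arrays and -0.07 without those 3, and read 5.86 on Control 1 against 4.86 on Dex 3.

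Of the Argonaute genes, Eif2c2 (Ago2), the member whose protein can cut a target RNA, read 8.19, 8.32, 8.39 and 8.50 in Control and 8.79, 8.89, 8.80 and 8.86 in Dex. The Dex arrays were tight (SD 0.05) and all above Control (SD 0.13), a 1.40-fold difference of 0.48 (SE 0.14, 95% interval 0.17 to 0.80, adjusted p = 0.232 by limma) that passed the signal to noise rule and was 0.43 without Control 1, Dex 1 and Dex 2. It was called after normexp, at 0.35 with an adjusted p of 0.0251 by limma. The 2 probes of Eif2c1 (Ago1) differed by 0.00 and 0.43, or by -0.72 and -0.21 without Control 1, Dex 1 and Dex 2. The brighter one read 6.43 to 6.71 in Control, 7.28 and 7.33 on Dex 1 and Dex 2, and 6.00 and 5.71 on Dex 3 and Dex 4, so that the Dex arrays lay on both sides of Control. Eif2c3 (Ago3) and Eif2c4 (Ago4), both near background on some arrays, differed by 0.20 and -0.19.

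**Figure D4:**
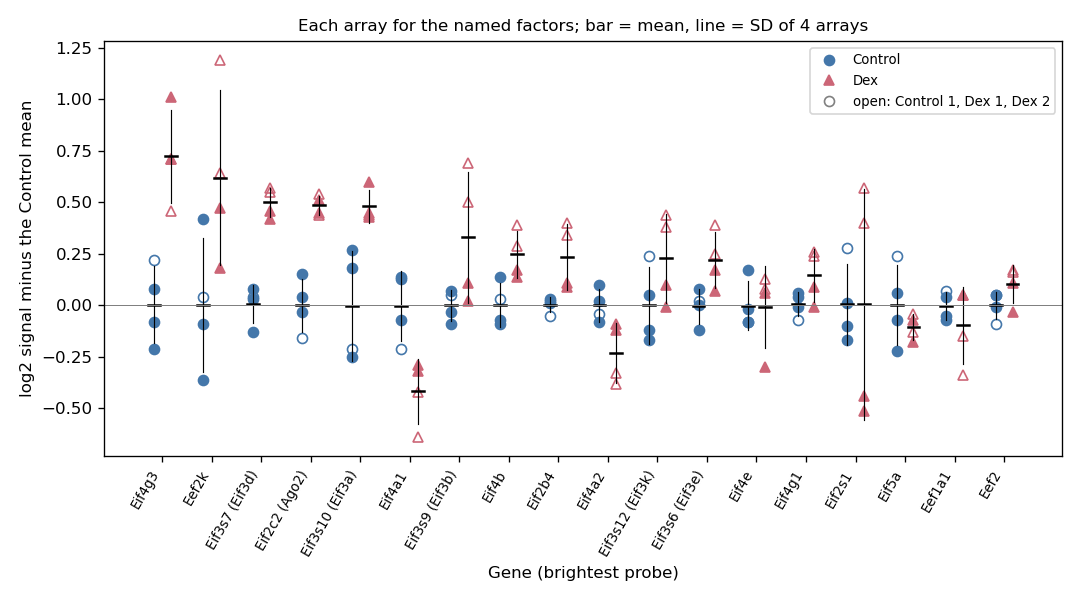
Log2 signal minus the Control mean (y axis) on each of the 8 arrays for the 18 genes named with every array (x axis), with blue circles for Control, red triangles for Dex, bars for means, lines for SD (n = 4), and open symbols for Control 1, Dex 1 and Dex 2. Dex and Control arrays do not overlap for Eif4g3, Eif3s7, Eif2c2, Eif3s10, Eif2b4, Eif4a1 and Eif4a2, and overlap for the other 11.

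Some factors stand under other names on this array and were added after their values were seen. Eif6 differed by 0.13, Eif4h by -0.03, Eif3m by 0.08, Eif1ad by -0.10 and Eif1ax by -0.36, and none was called. The probes of Eif2d gave 0.05 and 0.09, and Eif4enif1, the nuclear importer of Eif4e, 0.13 and -0.10.

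Around the factors themselves, the list of translation regulators held 18 measured genes, of which limma called 1 higher and none lower, with a median of 0.0538. That gene was Eif4ebp1, whose protein binds Eif4e and keeps it from Eif4g1 until it is phosphorylated. Its signal was 12.11, 12.05, 12.13 and 12.26 in Control and 13.04, 13.26, 12.86 and 12.93 in Dex. It rose by 0.89 (SE 0.15, 1.85-fold, adjusted p = 0.0479 by limma) with no overlap, and a second probe gave 0.90 (adjusted p = 0.0484). The call was lost with the replicate number as a block (adjusted p = 0.194 by limma), with the scan session as a block (0.0927), within the larger session (0.18), and without any single array, where the difference stayed between 0.81 and 0.94 and the adjusted p between 0.0711 and 0.198. It was kept without Control 1, Dex 1 and Dex 2 together (0.75, adjusted p = 0.0409 by limma). Its relative Eif4ebp2 differed by -0.52 (adjusted p = 0.35) and passed the signal to noise rule on the low side. The eIF2 alpha kinases Eif2ak1, Eif2ak2, Eif2ak3 and Eif2ak4 differed by 0.06, -0.24, -0.36 and 0.29, the last of them past the signal to noise rule. The poly(A) binding protein gene Pabpc1 and the ribosomal protein gene Rps6 each differed by 0.01. Rps6 read 18.11 to 18.21, with 18.21 repeated on arrays of both groups. Quantile normalization gives equal ranks equal values, so this 0.01 is a weak measure of a change. It was 0.06 with 75th percentile scaling.

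None of the 4 other translation lists held a gene called by limma. The 6 termination and recycling factors had a median of 0.101, and of 0.0553 (without Dex 1) to 0.129 (without Dex 4) with 1 array left out. The 6 mitochondrial translation factors had a median of -0.0415. The 17 cytosolic aminoacyl-tRNA synthetases had a median of 0.0957, with Qars at 0.35 and Gars at -0.34 as the extremes, and their mean level was 9.85 on Control 2 against 10.24 to 10.46 on the other Control arrays. Without Control 2 their median was -0.0921, with 6 higher and 11 lower. Among 6 genes of diphthamide, hypusine and selenocysteine biology the median was 0.0816. There Dph2, which acts in making the diphthamide of eEF2, differed by 0.56 (adjusted p = 0.172 by limma) and passed the signal to noise rule, as did the termination list's Hbs1l at 0.29. At an unadjusted p under 0.05 the 5 lists held 2, 0, 0, 0 and 2 genes in the order given. The median changed sign for the regulators without Dex 1 or without Dex 3 (-0.000225 and -0.000218), for the mitochondrial factors without Dex 4 (0.0064) and for the last list without Dex 2 (-0.00381). Without Control 1, Dex 1 and Dex 2 together the median was -0.069 for the regulators, -0.0166 for the synthetases, 0.00581 for the termination factors, -0.101 for the mitochondrial factors and -0.0998 for the last list.

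The distribution of differences places the members among the rest of the array. It was narrower than that of all probes and of bright probes, which were not matched to the members for signal level. Over all 8 arrays it lay slightly to the higher side. Median levels of the member probes relative to the Control mean were 0.256 on Dex 1 and 0.291 on Dex 2. They were -0.0413 on Dex 3 and -0.0474 on Dex 4.

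**Figure D5:**
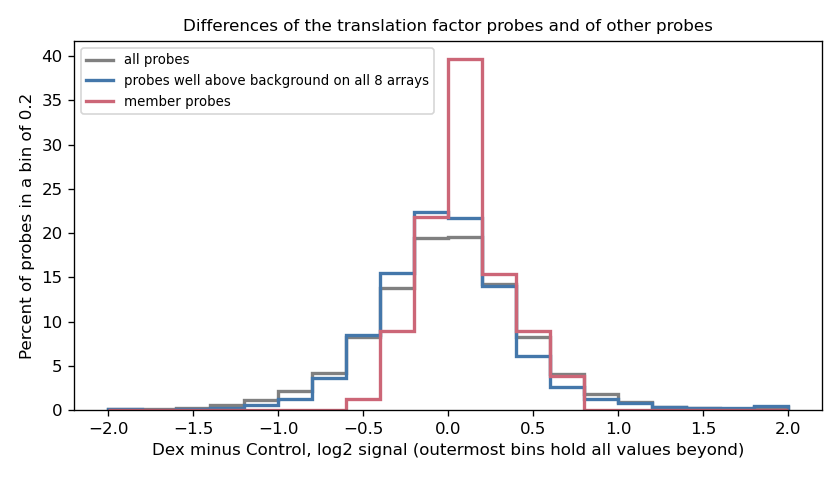
Share of probes (y axis, percent) in bins of 0.2 of the Dex minus Control log2 signal (x axis) for the 78 member probes (red), the 23987 probes well above background on all 8 arrays (blue) and all 41012 probes (grey). For the members 94.9% lie within 0.5 of 0, against 82.3% and 76.4%.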

How the data were processed

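Total RNA of 4 Control and 4 Dex samples was labeled with Cy3 and hybridized to 1-color Agilent Whole Rat Genome arrays of 4 per slide. The deposited scanner files hold the intensity of each spot, background subtracted by the authors with Feature Extraction 9.5.3.1 and not normalized between arrays, with 0 or 1 flags for other properties of a spot. The deposited table of the authors holds log2 values, quantile normalized and median polished per probe, and serves as an alternative because it correlated at 0.999999 or more with the values recomputed here. Array annotation refers to rn3, and no column lacked a sample.

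From the processed signals, outlier spots were left out (16 missing values among 41012 probes from 43379 spots), and log2 signals were quantile normalized and median polished. limma 3.58.1 in R 4.3.3 compared Dex with Control (lmFit, eBayes, unblocked and two-sided), and Benjamini-Hochberg adjusted p-values over the 41012 probes were called at 0.05. For the signal to noise rule, null values from each of the 70 ways to divide the arrays were pooled. This null is not that of the methods, which draw random permutations, so its calls are not those of the study. Both were tested on simulated data. Named with every array are the 12 genes of largest absolute difference among those well above background on each array of the brighter group, and Eif4e, Eif4a1, Eif4g1, Eif2s1, Eif5a, Eef1a1 and Eef2. All 45 symbols were found in RefSeq, 24 of them through an accession. Members and lists were chosen with earlier results of these data known. Same-numbered Control and Dex arrays deviated together, with correlations across probes of 0.397, 0.129, 0.55 and 0.184 for numbers 1 to 4, so blocked values stand beside calls that the block changed, although unlike numbers reached 0.401. The number of arrays limits the precision. No spot was saturated. Control 1 and Dex 3 share a slide and a scan session, and the other arrays share a second session on a Control slide and a Dex slide.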

Additional observations from a re-analysis of the deposited data

Results flagged for a closer look

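Within groups of 4 arrays, 2 of 90 sets of values held an array far from the other 3, judged by its gap to the nearest array as a share of the group's range, beyond Dixon's 95% limit for 4 values. Chance gives about 1 in 20. For Eif3s10 (Eif3a), Dex 3 read 13.40 and the other Dex arrays 13.23 to 13.25, a share of 0.873. For Eif4g2, Dex 3 read 13.63 and the others 13.58 to 13.59, a share of 0.866.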

How the results depend on the processing

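No translation factor probe was called by limma in the deposited table, with 75th percentile scaling, with dim probes left out, with the slide as a fixed block, or without any single array (lowest and highest count 0). The replicate block also gave 0 and among the factors and regulators changed only the call of Eif4ebp1. Scan session as a block and the larger session alone, both added after the data were seen, gave 0. Counts were 4 after normexp, where 2.23% of all probes were called, 2 with the slide as a random block (consensus correlation -0.235), where 4.48% were, 1 without the 3 arrays with the fewest probes above background (Control 1, Dex 1 and Dex 2), where 11.4% were, and 9 at an unadjusted p under 0.05. The 7 genes of the signal to noise rule (6.79% of all probes passed) became 2 with 75th percentile scaling (5.66%), and 4 to 9 without 1 array, with 4 (5.44%) without Control 3 and 9 (7.03%) without Dex 3. Probes whose groups did not overlap numbered 13 at first and 5 with that scaling (7.35% of all probes). They numbered 13 to 23 without 1 array, the 23 being without Dex 3 (13.6% of all probes), and 36 in 3 Control against 2 Dex arrays without those 3 (52.0% of all probes). The median difference over genes was 0.0140 without Dex 2 and 0.0376 without Dex 1, up to 0.166 without Dex 4, and -0.00897 without the 3 arrays. With the slide as a fixed block, which leaves Control 1 against Dex 3, it was -0.0144 while that of all probes was -0.0922, and 15 gene signs changed. The regulator list held 0 calls instead of 1 with 75th percentile scaling (Eif4ebp1 0.91, adjusted p = 0.519 by limma). Over all probes, limma called 81 with the replicate block, 166 with that scaling, 562 with dim probes left out, and 1 with the slide as a fixed block, against 319. The causes were not tested. A missing call does not show that a level stayed the same, and for dim members such as Eif5a2 and Eef1a2 the signal over background sets the limit.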
